A study of Mus musculus with 12 samples.

Results

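The 8 chemokine ligand genes Ccl3, Ccl4, Ccl5, Ccl6, Ccl9, Cxcl2, Cxcl12 and Xcl1 were followed across 4 groups of mouse bone marrow progenitors. Every probe set that the array annotation pairs with 1 of these genes was taken, which gave 12 of the 45101 probe sets on the array. Of these, 10 passed the filter on dim signals, so that each of the 8 genes had at least 1 kept probe set among the 13732 genes tested. The genes were picked from ligands whose log2 differences between these same groups of arrays were already known, so their values are given as a description and without a test.

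The study hybridised 12 Affymetrix mouse arrays, 3 to a group. Both FoxO-deficient groups, myeloid progenitors and LSK cells, came from pools of mice with the genotype Mx-Cre+; FoxO1/O3/O4LoxP/LoxP, and both wild-type groups of the same cell types from pools with the genotype Mx-Cre-; FoxO1/O3/O4LoxP/LoxP. All 4 groups therefore carried floxed FoxO1, FoxO3 and FoxO4 alleles, and the transgene Mx-Cre, whose promoter responds to interferon, was present in the deficient groups alone, so that an effect of Cre itself and of FoxO loss cannot be told apart. The stated aim concerned genes of reactive oxygen species metabolism. LSK cells lack lineage markers and carry both Sca-1 and Kit, and hematopoietic stem cells are found among them. The labels give no age or sex and do not tell if a group's 3 arrays stand for separate pools, so each error below is the spread between arrays, which may be technical.

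Chemokines are small secreted proteins that bind to G protein-coupled receptors on leukocytes and direct their movement. They are named by the spacing of their first cysteines as CC, CXC or XC ligands. Some, such as Ccl3, Ccl4 and Cxcl2, are made quickly on inflammatory stimulation of myeloid cells through NF-kB. Others are made steadily, such as Cxcl12, which marrow stromal cells release and which holds stem cells and progenitors in the marrow through its receptor Cxcr4. Ccl3 is also known as an inhibitor of the proliferation of primitive hematopoietic cells.

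The promoters of 4 of the genes and of the other ligand Cxcl1 are shown first, because Ccl3, Cxcl2 and Cxcl1 were low in FoxO-deficient myeloid progenitors while Ccl9 and Ccl6, which lie beside Ccl3, were not. Each sequence is the 250 bases before the annotated gene start, 5′ to 3′ on the strand of the gene, from RefSeq on build GRCm38.p6. Capitals mark matches to the motifs named below. The windows are chr11:83649379-83649628 on the minus strand for Ccl3, chr5:90903649-90903898 on the plus strand for Cxcl2, chr5:90890995-90891244 on the plus strand for Cxcl1, chr11:83578637-83578886 on the minus strand for Ccl9 and chr11:83593088-83593337 on the minus strand for Ccl6.
Ccl3: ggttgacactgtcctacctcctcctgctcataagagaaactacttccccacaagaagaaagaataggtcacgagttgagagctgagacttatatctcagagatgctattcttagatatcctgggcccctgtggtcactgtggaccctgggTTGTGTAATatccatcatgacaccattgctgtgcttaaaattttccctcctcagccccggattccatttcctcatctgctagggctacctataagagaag
Cxcl2: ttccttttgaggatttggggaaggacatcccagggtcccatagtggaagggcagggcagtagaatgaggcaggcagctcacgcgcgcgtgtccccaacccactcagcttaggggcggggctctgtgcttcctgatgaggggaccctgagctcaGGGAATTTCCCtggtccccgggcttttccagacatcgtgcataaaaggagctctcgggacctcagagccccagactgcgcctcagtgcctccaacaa
Cxcl1: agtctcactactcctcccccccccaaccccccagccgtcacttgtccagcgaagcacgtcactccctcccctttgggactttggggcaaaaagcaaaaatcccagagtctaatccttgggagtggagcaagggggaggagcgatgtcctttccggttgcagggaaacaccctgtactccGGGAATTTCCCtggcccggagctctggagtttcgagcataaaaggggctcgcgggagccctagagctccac
Ccl9: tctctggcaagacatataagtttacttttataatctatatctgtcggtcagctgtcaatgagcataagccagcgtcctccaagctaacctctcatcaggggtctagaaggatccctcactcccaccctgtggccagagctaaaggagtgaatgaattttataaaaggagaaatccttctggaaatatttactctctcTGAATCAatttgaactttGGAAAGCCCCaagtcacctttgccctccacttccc
Ccl6: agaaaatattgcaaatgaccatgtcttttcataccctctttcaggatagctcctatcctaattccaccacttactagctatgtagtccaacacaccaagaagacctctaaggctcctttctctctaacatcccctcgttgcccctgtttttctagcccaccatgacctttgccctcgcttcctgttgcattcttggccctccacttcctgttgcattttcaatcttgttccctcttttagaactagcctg

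Of the 8 genes, 6 matched a promoter entry; Ccl4 and Ccl5 are named only. Both strands were searched for the kB consensus, for AP-1 (TGANTCA), CRE (TGACGTCA), the CArG box, a FoxO element (GTAAACA) and C/EBP (TTNNGNAAT). The kB consensus was found in 3.9% of 32851 promoter windows of this length, AP-1 in 6.75%, CRE in 1.55%, the CArG box in 1.47%, the FoxO element in 3.17% and C/EBP in 10.2%. Cxcl2 held the kB consensus at positions -97 to -87, counted back from the gene start, and Cxcl1 held the same 11 bases at -71 to -61. In both genes this stretch matches on either strand with a shift of 1 base. Ccl9 also held a kB match, at -35 to -26, and an AP-1 match at -53 to -47, and it did not share the low values of Cxcl2 described next. Ccl3 held 1 C/EBP match at -100 to -92, and Ccl6, Xcl1 and Cxcl12 held none of the 6 motifs. The window of Cxcl10, another ligand low in FoxO-deficient myeloid progenitors, was searched too and is not printed. It held kB matches at -159 to -150 and -103 to -94, an AP-1 match at -74 to -68 and a C/EBP match at -237 to -229. No member's window held a CRE, CArG or FoxO match, and no match of 1 kind overlapped a match of another. A match is a run of letters in this window and was not tested as a binding site.

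Intensities below are normalised values in arbitrary units, so that a level is read across arrays for 1 probe set and is no measure of transcript amount between genes. Sums over markers, and the word brightest, refer to signal alone. The brightest of 27 control probe sets for bacterial transcripts gave each array its background limit, which lay between 4.54 and 12.4 on the 12 arrays. Differences are on the log2(intensity + 0.6) scale, FoxO-deficient minus wild type, with the standard error of a limma fit to 3 arrays per group. Where the dimmer group did not exceed its limit on any array, the fold is a lower bound, written as at least a given fold and taken against the mean of the limits.

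Array 2, of wild-type LSK cells, differed from all other arrays by a 3′ over 5′ signal ratio of 344 for Gapdh and of 145 for Actb, against 1.77 to 2.37 and 2.74 to 3.36 on the other 11 arrays, and whether the RNA or its amplification differed was not tested. Among the targeted genes, Foxo4 averaged 59.3 in FoxO-deficient and 329 in wild-type myeloid progenitors (limma, adjusted p = 1.14e-04), and 85.2 in FoxO-deficient and 393 in wild-type LSK cells (adjusted p = 0.00162). The brightest probe set of Foxo1 did not pass the test in either cell type (adjusted p = 0.609 in myeloid progenitors and 0.263 in LSK cells), nor did that of Foxo3 (0.299 and 0.561), and the exons deleted are not given in the labels. In LSK cells this Foxo1 probe set averaged 26.6 in FoxO-deficient and 104 in wild-type cells, with no overlap. Further Foxo1 probe sets were also lower there with no overlap, at 30.7 and 72.8 and at 6.88 and 11.0. The first of these was lower with no overlap in myeloid progenitors too, at 7.69 and 21.2, where the others overlapped. The remaining Foxo1 probe set went the other way in LSK cells with no overlap, at 12.9 and 8.20. Foxo3 averaged 2413 in FoxO-deficient and 1859.7 in wild-type myeloid progenitors, higher with no overlap. All 7 measured myeloid progenitor markers were called higher in wild-type myeloid progenitors than in wild-type LSK cells, such as the neutrophil elastase gene Elane at 1688.5 and 94.9, where 9.95% of all genes were called higher. Likewise 5 of 6 measured LSK markers were called lower, such as Mecom at 151 and 2535.5, where 11.5% of all genes were. Over all genes, 253 of 13732 were called at an adjusted p under 0.05 in myeloid progenitors (1.84%), 149 of them lower (1.09%), and 37 in LSK cells (0.269%). Without array 2 these counts were 1194 and 133. The median log2 difference over all genes was 0.04 in myeloid progenitors and -0.04 in LSK cells.

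In FoxO-deficient myeloid progenitors the signals of Ccl3, Ccl4 and Cxcl2 were at or near background, while in the other 3 groups all 3 genes were well above it. Ccl9 and Ccl6 were clearly measured in all 4 groups and overlapped between FoxO-deficient and wild-type cells. Ccl5 and Xcl1 were above background in LSK cells only, Xcl1 in the FoxO-deficient ones alone, and Cxcl12 stayed near background throughout. In all, 3 of the 8 genes had every FoxO-deficient myeloid progenitor array below every wild-type one, and 12.6% of all tested genes did so. None had every such array above, against 18.2% of all tested genes. In LSK cells, 2 of the 8 had every FoxO-deficient array above every wild-type array, against 7.77% of all tested genes, and none had every array below, against 9.06%. These counts follow from the way the genes were picked, and Xcl1, 1 of the 2 in LSK cells, passed the filter only through the FoxO-deficient LSK arrays. In sorted bulk samples, fewer cells of a type and less RNA per cell cannot be told apart.

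**Figure D1:**
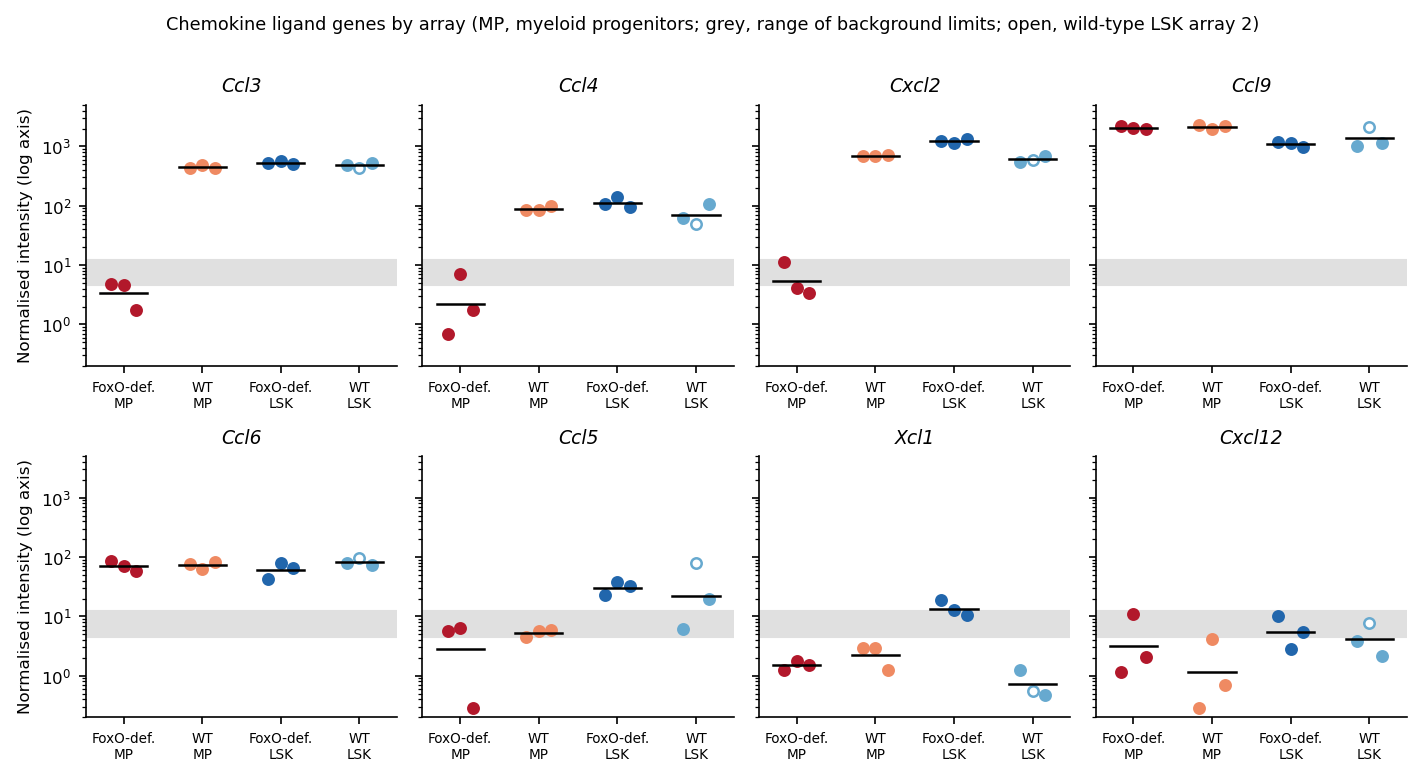
Normalised intensity (log axis, arbitrary units) of the 8 chemokine ligand genes on each of the 12 arrays, by group (MP, myeloid progenitors), with a bar at the group mean of log2 values. The grey band is the range of background limits, 4.54 to 12.4, and the open symbol is wild-type LSK array 2. Ccl3, Ccl4 and Cxcl2 lie in or below the band in FoxO-deficient myeloid progenitors and above it in the other 3 groups.

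Ccl3, a CC ligand of Ccr1 also called MIP-1 alpha, read 4.75, 4.56 and 1.76 on the FoxO-deficient myeloid progenitor arrays, against 435, 485 and 432 on the wild-type ones. In LSK cells it read 519.7, 568 and 514 on the FoxO-deficient arrays, against 492, 437 and 525 on the wild-type arrays. The FoxO-deficient myeloid progenitors were thus low on every array, none of them above its background limit, and the other 3 groups had levels much like each other. The difference was -6.81 ± 0.28 in myeloid progenitors, a fold of at least 48.6, and 0.14 ± 0.28 in LSK cells, where the groups overlapped. In order of mean level, FoxO-deficient LSK cells (533), wild-type LSK cells (483) and wild-type myeloid progenitors (449.9) each overlapped with the next. FoxO-deficient myeloid progenitors (3.42) stood apart.

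Ccl4, the closely related MIP-1 beta, read 0.679, 6.99 and 1.76 on the FoxO-deficient myeloid progenitor arrays, against 84.6, 83.4 and 100.2 on the wild-type ones. The LSK values were 107, 138 and 94.9 on the FoxO-deficient arrays, against 62.6, 48.7 and 107 on the wild-type arrays. As for Ccl3, no FoxO-deficient myeloid progenitor array exceeded its limit and every array of the other groups did. The difference was -4.98 ± 0.55 in myeloid progenitors, at least 9.67-fold, and 0.70 ± 0.55 in LSK cells, where the groups overlapped. The lowest wild-type LSK value came from array 2, and without it the LSK difference was 0.45. By mean level the order was FoxO-deficient LSK cells (112), then wild-type myeloid progenitors (89.1) and wild-type LSK cells (68.9), each overlapping with the next, and then FoxO-deficient myeloid progenitors (2.24), which did not overlap with any.

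Cxcl2, the CXC ligand that draws neutrophils through Cxcr2, read 11.4, 4.04 and 3.34 on the FoxO-deficient myeloid progenitor arrays, against 684, 691 and 726 on the wild-type ones. On LSK arrays the gene read 1237.5, 1136.7 and 1328.9 on the FoxO-deficient arrays, against 555, 589 and 696 on the wild-type arrays. Its FoxO-deficient arrays were thus all low in myeloid progenitors and all high in LSK cells, and no groups overlapped in either cell type. The difference was -6.86 ± 0.35 in myeloid progenitors, with 1 of the 3 FoxO-deficient arrays above its limit and a fold of at least 68.0, and 1.01 ± 0.35 in LSK cells, or 2.02-fold. Wild-type myeloid progenitors (mean 700.0) and wild-type LSK cells (611) overlapped. FoxO-deficient LSK cells (1231.8) lay above both and FoxO-deficient myeloid progenitors (5.43) below both.

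The size of these 3 differences depended on the offset added before the logarithm, since the FoxO-deficient values were at background. With an offset of 32 in place of 0.6 they were -3.76 for Ccl3, -1.79 for Ccl4 and -4.26 for Cxcl2, and all 3 kept their groups apart. Without any 1 of the 12 arrays they ran from -6.99 to -6.40 for Ccl3, from -5.68 to -4.39 for Ccl4 and from -7.33 to -6.53 for Cxcl2. The effect in myeloid progenitors minus the effect in LSK cells was -6.95 ± 0.40 for Ccl3, -5.68 ± 0.78 for Ccl4 and -7.87 ± 0.50 for Cxcl2. Over all genes, 0.859% were called in the test of that difference.

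**Figure D2:**
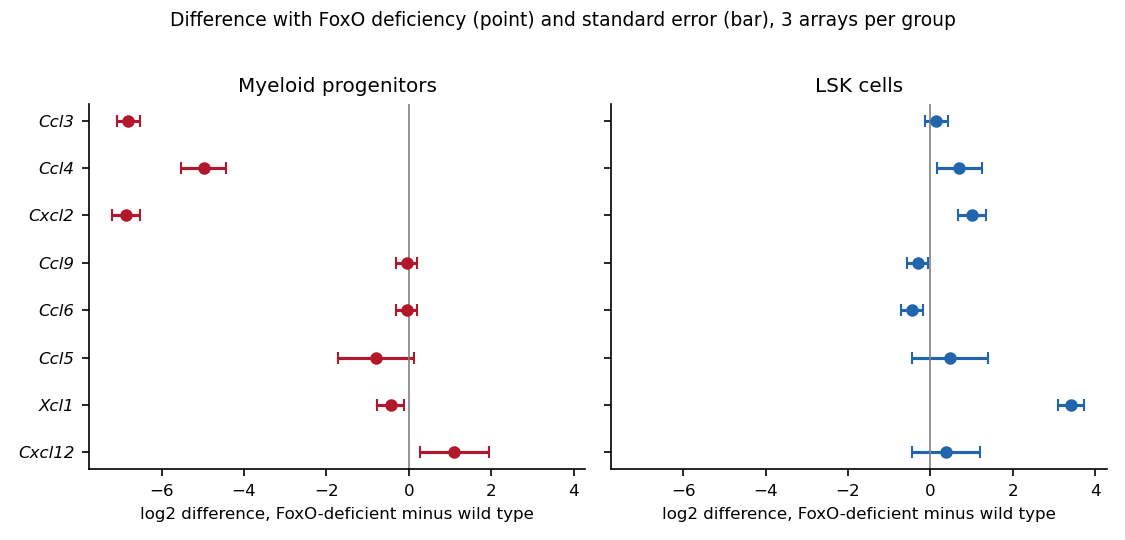
Difference in log2 normalised intensity, FoxO-deficient minus wild type, for each of the 8 genes in myeloid progenitors (left) and LSK cells (right), with the standard error of the fit as bars (3 arrays per group). Ccl3, Ccl4 and Cxcl2 lie at -6.81, -4.98 and -6.86 in myeloid progenitors, and Xcl1 lies at 3.42 in LSK cells against wild-type values below background.

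Ccl9, a CC ligand of Ccr1 that myeloid cells make steadily in mice, read 2207.9, 2012.2 and 1995.5 on the FoxO-deficient myeloid progenitor arrays, against 2274.5, 1987.4 and 2174.1 on the wild-type ones. Its LSK readings were 1189, 1144.2 and 980.3 on the FoxO-deficient arrays, against 1028.9, 2116.1 and 1159.5 on the wild-type arrays, where the high value is that of array 2. FoxO-deficient and wild-type arrays overlapped in both cell types. The difference was -0.05 ± 0.25 in myeloid progenitors and -0.31 ± 0.25 in LSK cells, and without array 2 the LSK difference was 0.01. Both myeloid progenitor groups, at means of 2069.6 in FoxO-deficient and 2142 in wild-type cells, were above the FoxO-deficient LSK cells at 1100.7.

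The second Ccl9 probe set, dimmer than the first, read 66.2, 57.5 and 64.6 on the FoxO-deficient and 62.7, 59.4 and 64.3 on the wild-type myeloid progenitor arrays. On the LSK arrays it read 23.3, 25.6 and 32 in FoxO-deficient cells and 23.4, 6.25 and 16.7 in wild-type cells. It too overlapped between FoxO-deficient and wild-type cells, at 0.01 ± 0.40 in myeloid progenitors and 0.95 ± 0.40 in LSK cells. On array 2 it gave the lowest of its 12 values, 6.25, while the brighter probe set gave 2116.1 there, well above the other 2 arrays of its group. In wild-type cells the myeloid progenitors were above LSK cells on every array for this probe set, by 2.15 ± 0.40, and for the brighter one the difference was 0.65 ± 0.25 with overlap through array 2.

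Ccl6, the neighbour of Ccl9 on the chromosome and another mouse ligand of Ccr1, read 87.0, 70.2 and 58.3 on the FoxO-deficient myeloid progenitor arrays, against 77.1, 62.4 and 81.7 on the wild-type ones. Among LSK cells it read 42.1, 80.2 and 64.1 on the FoxO-deficient arrays, against 78.0, 94.6 and 73.2 on the wild-type arrays. All 4 groups overlapped. The difference was -0.05 ± 0.26 in myeloid progenitors and -0.44 ± 0.26 in LSK cells. Its second, dimmer probe set gave group means of 11.6 in FoxO-deficient and 19.5 in wild-type myeloid progenitors, and of 19.9 in FoxO-deficient and 10.8 in wild-type LSK cells. There the differences were -0.72 ± 0.43 and 0.85 ± 0.43, the second of opposite sign to the brighter probe set, and the groups again overlapped.

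Ccl5, also called RANTES and a ligand of Ccr1 and Ccr3 that T and NK cells make in quantity, read 5.57, 6.45 and 0.29 on the FoxO-deficient myeloid progenitor arrays, against 4.54, 5.62 and 5.82 on the wild-type ones. Every one of these 6 values was at or below its background limit, so no fold is given. For LSK cells the values were 22.6, 38.4 and 31.9 on the FoxO-deficient arrays, against 6.15, 79.7 and 20.0 on the wild-type arrays. The LSK groups overlapped, with a difference of 0.47 ± 0.92, and the highest value was again that of array 2. Without that array the difference was 1.40. Within each genotype, myeloid progenitors were below LSK cells on all arrays, by at least 3.33-fold in FoxO-deficient cells and at least 2.23-fold in wild-type cells. In wild-type cells the nearest values, 5.82 and 6.15, were both below their limits, so their order says little. Without array 2 the wild-type bound was 1.17-fold, with 1 of the 2 remaining LSK arrays above its limit.

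Xcl1, the XC ligand of Xcr1 that T and NK cells are known to make, read 1.26, 1.76 and 1.52 on the FoxO-deficient myeloid progenitor arrays, against 2.96, 2.92 and 1.26 on the wild-type ones. In LSK cells it read 18.6, 12.6 and 10.5 on the FoxO-deficient arrays, against 1.24, 0.555 and 0.472 on the wild-type arrays. The FoxO-deficient LSK arrays alone exceeded their limits. The LSK difference of 3.42 ± 0.32 was set against wild-type values below background, and as a bound it was at least 1.69-fold. With an offset of 32 it was 0.49. The gene passed the filter only through the 3 FoxO-deficient LSK arrays, so that it left the tested genes when any 1 of them was left out.

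Summed over the 7 measured T and NK cell markers, the level per array was 910.2 to 1142.4 in FoxO-deficient and 284 to 741 in wild-type LSK cells, and 2347.1 to 2666.5 in FoxO-deficient and 1744.1 to 1816.3 in wild-type myeloid progenitors. Most of each sum came from Nkg7, a granule protein gene, and none of the 7 markers was called in either cell type. Nkg7 averaged 2402.6 in FoxO-deficient and 1702.0 in wild-type myeloid progenitors, and 953 in FoxO-deficient and 492 in wild-type LSK cells. It was thus higher in FoxO-deficient cells of both types, with no overlap. The lowest wild-type LSK sum was that of array 2, where Nkg7 read 253, against 691 and 681 on arrays 1 and 3. The T cell receptor component Cd3e averaged 1.88, 3.30, 3.82 and 3.08 in FoxO-deficient and wild-type myeloid progenitors and in FoxO-deficient and wild-type LSK cells, all near background. Prf1 averaged 41.0 in FoxO-deficient and 20.5 in wild-type LSK cells, higher with no overlap, while its other kept probe set went the other way. In myeloid progenitors Prf1 averaged 34.5 in FoxO-deficient and 41.0 in wild-type cells, with overlap. Gzmb averaged 13.2 in FoxO-deficient and 16.4 in wild-type myeloid progenitors, also with overlap. In LSK cells Cd3e, Cd3g, Cd4, Cd8a and Gzmb overlapped. Cd3d, Ncr1, Gzma and Il2rb did not pass the filter. The part of these cells in the Ccl5 and Xcl1 values was not tested.

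Cxcl12, the stromal retention ligand, read 1.15, 11.1 and 2.08 on the FoxO-deficient myeloid progenitor arrays, against 0.283, 4.17 and 0.687 on the wild-type ones. The LSK values were 10.2, 2.86 and 5.45 on the FoxO-deficient arrays, against 3.90, 7.61 and 2.17 on the wild-type arrays. Only 1 array of each FoxO-deficient group and no wild-type array exceeded its limit, and the groups overlapped in both cell types. Neither of the other 2 Cxcl12 probe sets exceeded the limit on any of the 12 arrays. Stromal and endothelial markers summed to 65.5 to 105 in FoxO-deficient and 38.0 to 66.5 in wild-type myeloid progenitors, and to 136 to 188 in FoxO-deficient and 137 to 335 in wild-type LSK cells over 6 measured genes. The highest wild-type LSK sum was that of array 2, where Col1a2 read 153, against 57.0 and 49.7 on arrays 1 and 3. All of these were above the FoxO-deficient LSK arrays, at 13.0 to 26.1. Col1a1 was also lower in FoxO-deficient LSK cells, at 8.30 against 23.1, with no overlap. Sparc, at 101 against 41.1, and Cdh5, near background, were higher there with no overlap. The other kept probe set of Sparc gave -0.61. None of the 6 genes was called in LSK cells. Lepr, Pdgfra, Dcn and Lum, which define marrow stroma, did not pass the filter.

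Across FoxO-deficient cells alone, 5 of the 8 genes (Ccl3, Ccl4, Cxcl2, Ccl5 and Xcl1) had every myeloid progenitor array below every LSK array, and Ccl9 had every array above, where 22.4% and 30.0% of all tested genes did so. Across wild-type cells, Ccl5 alone was lower on every array and Xcl1 alone higher, with all Xcl1 values below background, where 17.6% and 18.2% of all tested genes did so. Ccl3, Ccl4 and Cxcl2 thus overlapped between the wild-type cell types and were apart between the FoxO-deficient ones. The counts between cell types also follow from the way the genes were picked. Xcl1 passed the filter only through the FoxO-deficient LSK arrays, so its place in the first count was set by the filter.

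The low genes and genes whose groups overlapped lie side by side. In the RefSeq order along chromosome 11 the genes run Ccl5, Ccl9, Ccl6, Ccl3 and Ccl4, followed by Wfdc17. The myeloid progenitor differences in this order were -0.80 (at background), -0.05, -0.05, -6.81 and -4.98, and Wfdc17 had -0.86 (limma, adjusted p = 0.528). On chromosome 5, Cxcl2 follows Cxcl3, Cxcl15 and Cxcl1 and precedes Mthfd2l, a mitochondrial folate enzyme gene. There Cxcl1 and Cxcl2 were low, at -2.25 and -6.86, and Mthfd2l had -0.17 (limma, adjusted p = 0.93). Cxcl3 had -1.95 ± 0.53 and did not pass the test (adjusted p = 0.114), with means of 1.42 in FoxO-deficient and 7.22 in wild-type myeloid progenitors. Among these arrays only 1 wild-type array exceeded its background limit for Cxcl3. Cxcl3, Wfdc17 and Mthfd2l are named for their place and were chosen after their values were seen.

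The other chemokine ligands were compared over a list of 30 genes, of which 15 were measured. This list and those of receptors, inflammatory genes and immediate-early genes below were drawn up with earlier results of these arrays known. Their counts follow in part from that choice and are a description. In myeloid progenitors 2 of the 15 were called, Cxcl10 and Cxcl1, both lower in FoxO-deficient cells, where 1.09% of all tested genes were called lower. The median difference of the 15 was -0.39, beside 0.04 over all genes. In LSK cells none was called, while 2 had an unadjusted p under 0.05, both higher, as did 11.5% of all genes in either direction, and the median was 0.58, beside -0.04. Cxcl10, an interferon-induced ligand of Cxcr3, read 4.65, 2.5 and 4.75 on the FoxO-deficient myeloid progenitor arrays, against 67.9, 84.5 and 56.0 on the wild-type ones. It fell by at least 7.45-fold (log2 difference -3.96 ± 0.43; limma, adjusted p = 0.0012, and 1.97e-05 to 0.00806 over 19 alternatives). In LSK cells it averaged 56.6 in FoxO-deficient and 33.7 in wild-type cells (adjusted p = 0.533).

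Cxcl1, like Cxcl2 a neutrophil attractant that binds to Cxcr2, read 12.9, 6.45 and 10.0 on the FoxO-deficient myeloid progenitor arrays, against 54.0, 66.3 and 29.4 on the wild-type ones. It fell by 2.25 ± 0.32 on the log2 scale (limma, adjusted p = 0.00714), with 2 of 3 FoxO-deficient arrays above the limit. In LSK cells it averaged 77.1 in FoxO-deficient and 46.0 in wild-type cells, with no overlap, and did not pass the test (adjusted p = 0.428). Pf4, the platelet factor of megakaryocytes and the brightest of the remaining ligands, averaged 204 in FoxO-deficient and 301 in wild-type myeloid progenitors (adjusted p = 0.464), and 264 in FoxO-deficient and 111 in wild-type LSK cells (adjusted p = 0.137). Without array 2 both Pf4 differences passed, at adjusted p = 0.0203 and 0.00117. The other 12 measured ligands were not called in either cell type.

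Of 23 chemokine receptor genes, 15 were measured, and 1 was called in each cell type, both lower in FoxO-deficient cells, where 1.09% and 0.146% of all genes were called lower. The median difference of the 15 was -0.05 in myeloid progenitors and -0.13 in LSK cells. Ccrl2, an atypical receptor induced on activated myeloid cells, read 14.2, 11.2 and 19.5 on the FoxO-deficient myeloid progenitor arrays, against 49.5, 44.8 and 36.7 on the wild-type ones. It fell by 1.53 ± 0.23 on the log2 scale (limma, adjusted p = 0.00929), and in LSK cells it averaged 94.6 in FoxO-deficient and 108 in wild-type cells (adjusted p = 0.742). Ccr2, the receptor of Ccl2 that marks monocytes and their precursors, read 7.90, 10.5 and 12.4 on the FoxO-deficient LSK arrays, against 60.6, 86.9 and 56.6 on the wild-type ones. The difference there was -2.65 ± 0.21 (adjusted p = 9.36e-04), and the call was lost in a fit to only the groups compared (adjusted p = 0.13). Of its 4 kept probe sets, the middle one by brightness gave -1.94 in myeloid progenitors and -1.76 in LSK cells, where it was not called (adjusted p = 0.266). The remaining probe sets gave 0.28 and -1.06 in myeloid progenitors, and 0.16 and 0.17 in LSK cells. In myeloid progenitors Ccr2 averaged 208 in FoxO-deficient and 314 in wild-type cells (adjusted p = 0.248). There it was called lower without array 2, with array weights, with an offset of 32 and from only the groups compared.

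Of the receptors of these ligands, 4 are named here for that role and after their values were seen, and none of the 4 was called in either cell type. Cxcr4, the receptor of Cxcl12, averaged 2004 in FoxO-deficient and 1641.5 in wild-type myeloid progenitors (limma, adjusted p = 0.387), and 2263.5 in FoxO-deficient and 2158.8 in wild-type LSK cells (adjusted p = 0.833). Ccr1 averaged 7.63 in FoxO-deficient and 27.7 in wild-type myeloid progenitors with no overlap (adjusted p = 0.339). Cxcr2, the receptor of Cxcl2 and Cxcl1, averaged 13.6 in FoxO-deficient and 8.79 in wild-type myeloid progenitors (adjusted p = 0.877). Ackr3, the scavenging receptor of Cxcl12, averaged 3.38 in FoxO-deficient and 3.52 in wild-type myeloid progenitors (adjusted p = 0.995). Xcr1 did not pass the filter.

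**Figure D3:**
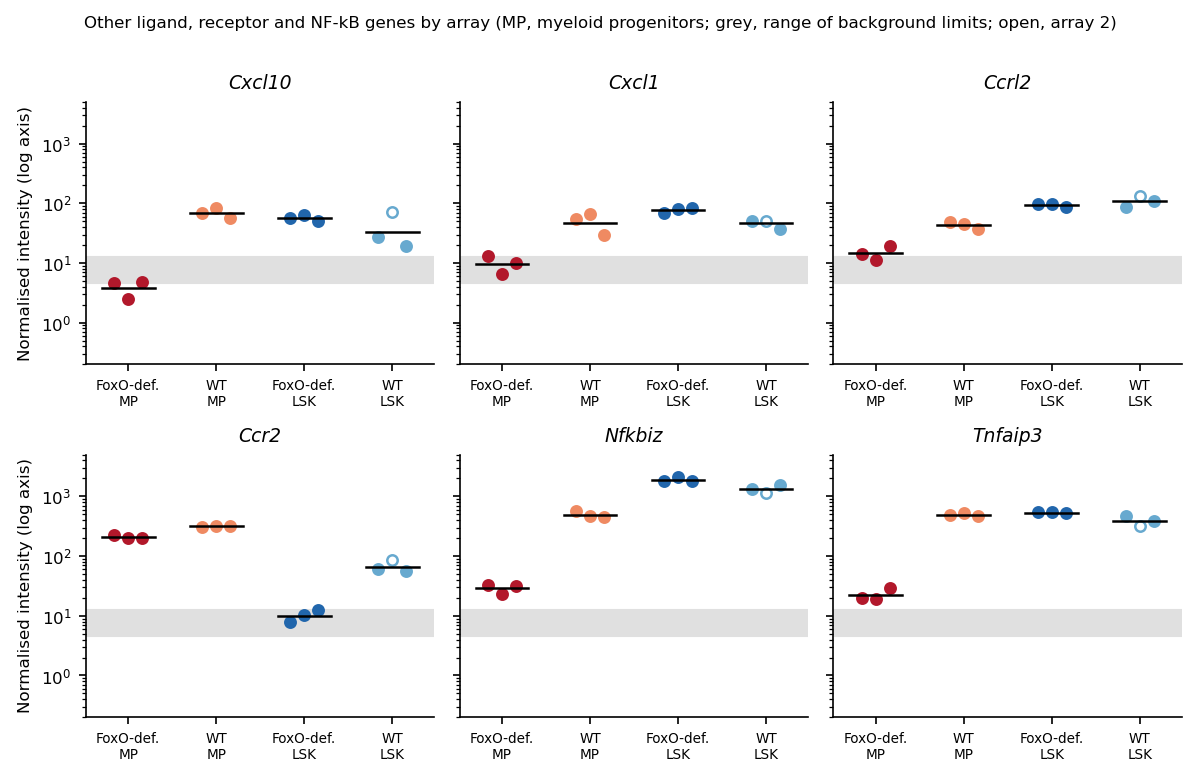
Normalised intensity (log axis, arbitrary units) on each of the 12 arrays, by group (MP, myeloid progenitors), for the ligands Cxcl10 and Cxcl1, the receptors Ccrl2 and Ccr2 and the NF-kB genes Nfkbiz and Tnfaip3, with a bar at the group mean of log2 values. The grey band is the range of background limits and the open symbol is wild-type LSK array 2. All but Ccr2 are lowest in FoxO-deficient myeloid progenitors, and Ccr2 is lowest in FoxO-deficient LSK cells.

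Of 28 listed inflammatory cytokine and NF-kB pathway genes 26 were measured, and 11 of them were called lower and none higher in FoxO-deficient myeloid progenitors, beside 1.09% and 0.757% of all genes, with a median difference of -1.96. The other 15 did not pass, among them the cytokine genes Il1b (-2.16; limma, adjusted p = 0.198), Il10 (-1.26; 0.331) and Il6 (1.21; 0.647), named after their values were seen. Il1b and Il10 exceeded the background limit on only 1 wild-type myeloid progenitor array each and on no FoxO-deficient one. Il6 did so on 1 FoxO-deficient myeloid progenitor array and on no wild-type one. In LSK cells none of the 26 was called, while 5 had an unadjusted p under 0.05, all higher, where 11.5% of all genes had one in either direction, and the median was 0.47. The counts of this list follow in part from its choice with earlier results known. Nfkbiz, an inducible NF-kB cofactor, read 33.1, 23.0 and 31.5 on the FoxO-deficient myeloid progenitor arrays, against 561, 472 and 446 on the wild-type ones (difference -4.06 ± 0.19; limma, adjusted p = 3.67e-06). Tnfaip3, the feedback inhibitor A20, read 19.6, 19.2 and 29.6 on the FoxO-deficient arrays, against 484, 533 and 476 on the wild-type arrays (-4.44 ± 0.21; adjusted p = 3.67e-06). Its second kept probe set gave -3.08, and with it in place of the brightest the call was lost (adjusted p = 0.0629). Nfkbia, the inhibitor that holds NF-kB in the cytoplasm, averaged 965 in FoxO-deficient and 3834.3 in wild-type cells (-1.99 ± 0.17; adjusted p = 1.74e-04).

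Among the cytokines and enzymes of that list, the tumor necrosis factor gene Tnf averaged 7.96 in FoxO-deficient and 32.1 in wild-type myeloid progenitors (limma, adjusted p = 0.0102). Osm, encoding the cytokine oncostatin M, averaged 15.6 in FoxO-deficient and 72.7 in wild-type cells (adjusted p = 0.0119, and 0.0556 without wild-type myeloid progenitor array 7). The prostaglandin synthase gene Ptgs2 averaged 3.05 in FoxO-deficient and 138 in wild-type cells, at least 15.0-fold lower (adjusted p = 2.24e-04), and its second kept probe set gave a log2 difference of -0.41. Socs3, a feedback inhibitor of cytokine signalling, averaged 8.89 in FoxO-deficient and 285 in wild-type cells (adjusted p = 2.45e-04). The early response gene Ier3 averaged 68.7 in FoxO-deficient and 758 in wild-type cells (adjusted p = 0.00425). All 5 were therefore lower in FoxO-deficient myeloid progenitors with the brightest probe set of each gene.

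Immediate-early genes, which cells transcribe within minutes of stimulation or handling, were mostly low in these cells too. Of 13 listed and measured genes, 12 were called lower in FoxO-deficient myeloid progenitors, where 1.09% of all genes were, with a median difference of -4.18. None was called in LSK cells, where 0.269% of all genes were called and the median was 0.24. Egr1 read 224, 234 and 223 on the FoxO-deficient myeloid progenitor arrays, against 3396, 3259.7 and 3273.2 on the wild-type ones (limma, adjusted p = 4.57e-07). Fos averaged 120.4 in FoxO-deficient and 3018 in wild-type cells, and Zfp36, whose protein destabilises cytokine and chemokine transcripts, averaged 32.4 in FoxO-deficient and 510.0 in wild-type cells. What these genes and the chemokine genes share in these cells was not tested. The immediate-early list was drawn up with earlier results of these arrays known, so its counts follow in part from that choice.

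The sum over 7 measured monocyte and macrophage markers was 427 to 477 on FoxO-deficient and 671 to 783 on wild-type myeloid progenitor arrays, and 177 to 181 on FoxO-deficient and 179 to 580.3 on wild-type LSK arrays. The value of 580.3 was that of array 2, where Csf1r read 358, against 20.2 and 0.828 on arrays 1 and 3. The lipopolysaccharide co-receptor Cd14 averaged 12.1 in FoxO-deficient and 99.5 in wild-type myeloid progenitors and was the only marker of this list called there (limma, adjusted p = 1.02e-04), and the median difference of the list was -0.03. Csf1r averaged 143 in FoxO-deficient and 229 in wild-type cells, and Ccr2 averaged 208 and 314. Both were lower with no overlap and were not called (limma, adjusted p = 0.942 and 0.248). The error of the fit is shared by all groups. For Csf1r it was 1.51, with values from 0.828 to 358 on the wild-type LSK arrays. Ccr2 was called without array 2, with array weights, with an offset of 32 and from only the groups compared. The 2 other kept probe sets of Csf1r gave -0.06 and -0.12. Itgam, a defining marker of monocytes, averaged 2.93 in FoxO-deficient and 2.51 in wild-type cells, at or below background in both, while Cd68 averaged 57.9 in FoxO-deficient and 59.0 in wild-type cells. Fcgr1, an Fc receptor gene, averaged 10.7 in FoxO-deficient and 2.63 in wild-type cells, with no overlap and no call (adjusted p = 0.414). Adgre1, which encodes F4/80, averaged 10.4 in FoxO-deficient and 5.30 in wild-type cells (adjusted p = 0.671).

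Basophil and mast cell markers summed, over 6 measured genes, to 939 to 959 on FoxO-deficient and 552 to 641 on wild-type myeloid progenitor arrays, and to 242 to 297 on FoxO-deficient and 59.2 to 191 on wild-type LSK arrays. The sum of 191 was that of array 2, where Cpa3 read 122, against 13.3 and 15.5 on arrays 1 and 3. In each cell type 1 of the 6 was called, both higher, where 0.757% of all genes were called higher in myeloid progenitors and 0.124% in LSK cells. The chymase gene Cma1 averaged 13.3 in FoxO-deficient and 2.19 in wild-type myeloid progenitors (limma, adjusted p = 0.00575), and the basophil protease gene Mcpt8 averaged 148 in FoxO-deficient and 28.7 in wild-type LSK cells (adjusted p = 0.0019). For Cma1 no wild-type myeloid progenitor array exceeded its limit, and as a bound the difference was at least 1.38-fold. Late neutrophil markers summed, over 7 measured genes, to 6269.4 to 6562.7 on FoxO-deficient and 4447.3 to 4578.9 on wild-type myeloid progenitor arrays, and to 8496.8 to 8737.7 on FoxO-deficient and 5923 to 8120.1 on wild-type LSK arrays. Of these, only the cathelicidin gene Camp was called, higher in both myeloid progenitors (0.80 ± 0.16; adjusted p = 0.0401) and LSK cells (1.08 ± 0.16; adjusted p = 0.0311). The highest neutrophil marker sum among wild-type LSK arrays was again that of array 2, where S100a8 read 3294.4, against 2124.2 and 2456.6. None of 5 megakaryocyte and 3 mature B cell markers was called in either cell type. The part of mature monocytes, basophils, mast cells and neutrophils in the chemokine values was not tested.

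**Figure D4:**
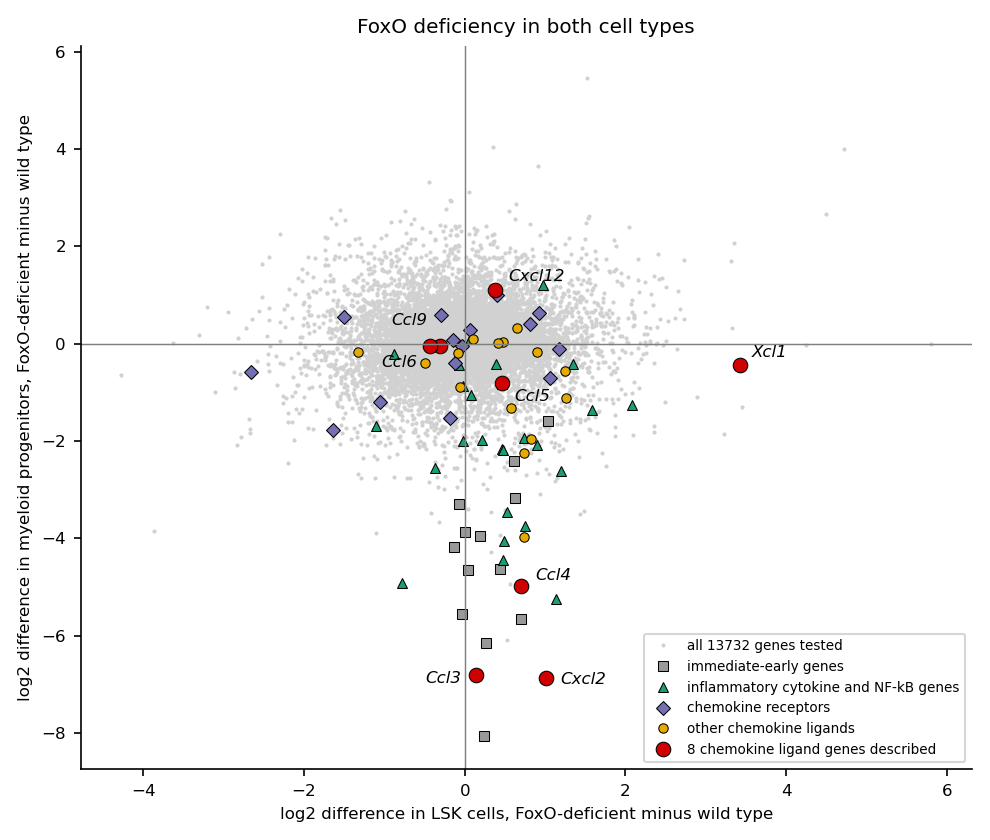
Difference in log2 normalised intensity with FoxO deficiency in LSK cells (horizontal axis) and in myeloid progenitors (vertical axis) for all 13732 tested genes (grey dots), the 8 chemokine ligand genes (red) and 4 gene lists. Ccl3, Ccl4 and Cxcl2 lie far below 0 in myeloid progenitors, at -6.81, -4.98 and -6.86, with most immediate-early and many NF-kB genes, while Ccl9 and Ccl6 lie at -0.05.

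The genes with the pattern most like each ligand were found by the Pearson correlation of log2 values over the 12 arrays, as a description. These arrays form 4 groups of 3, so a single group that stands apart sets most of such a value. For Ccl3 they were Egr1 (r = 0.993), Zfand5 (0.993) and Dusp1 (0.986), for Cxcl2 they were Dusp1, Egr1 and Zfand5 (0.984 each), and for Ccl4 they were Fosb (0.976), Trib1 (0.972) and Btg2 (0.965). Among themselves, Ccl3 and Cxcl2 had r = 0.99, Ccl3 and Ccl4 0.96, and Ccl4 and Cxcl2 0.94, while Ccl3 and Ccl9 had -0.47. Ccl9, itself high in both myeloid progenitor groups and on array 2, was closest to Nop9 (0.98), Mars1 (0.977) and Mrpl41 (0.977). Ccl5 was closest to Tubb6 (0.962), H2-Q5 (0.919) and Dennd3 (0.914), and Xcl1 to Golph3 (0.89), Bcl2l11 (0.876) and Pex7 (0.851). Ccl6 was closest to Hoxd12 (0.924) and Cxcl12 to Epha5 (0.911), both with values that overlapped between groups for the ligand itself.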

How the data were processed

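RNA of sorted bone marrow cells was amplified and labelled in triplicate and hybridised to Affymetrix arrays, per the labels' protocols. The authors deposited linear intensities, 1 per probe set and array; their software was not given in the sources used here. The deposited array medians ran from 8 to 13.5. From the deposited intensities, log2(intensity + 0.6) was computed and quantile normalised, with the 10th percentile of the whole table as offset. Printed intensities are the antilog with the offset taken off. Probe sets above the 40th percentile of their array on at least 3 arrays were kept, and the brightest stood for its gene, named through the platform annotation and updated to RefSeq symbols (34741 of 34945 probe sets with 1 symbol matched). All 12 arrays entered 1 linear model of the 4 group means (limma 3.58.1, R 4.3.3, 8 residual degrees of freedom), with two-sided p-values adjusted by Benjamini-Hochberg over 13732 genes and called under 0.05. The number of arrays limits the precision.

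The 8 genes, the lists and the markers were chosen with earlier results of these data known. From each list, the called genes (at most 8, by adjusted p) and, where fewer than 3 were called, the brightest up to 3 were named. Bounds took, per array, the higher of the background limit and the gene's value. On simulated arrays the same fit recovered 56 of 66 genes changed by 4 on the log2 scale, 49 of 67 changed by 2 and 11 of 67 changed by 1 in the myeloid progenitor comparison. Alternatives were another offset, median scaling, other filters, another probe set per gene, array weights, a fit to the compared groups alone, and leaving out each array.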

Additional observations from a re-analysis of the deposited data

Results flagged for a closer look

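Cxcl2 went opposite ways in the 2 cell types. Every FoxO-deficient array was below every wild-type array in myeloid progenitors, and every FoxO-deficient array was above every wild-type array in LSK cells. The effect in myeloid progenitors minus the effect in LSK cells was -7.87, and this difference was not tested, since the gene was picked with it known.

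For 14 other named genes the difference between the FoxO effect in myeloid progenitors and that in LSK cells passed the test (limma, adjusted over 13732 genes, of which 0.859% were called). They came from lists drawn up with earlier results of these arrays known, so their passing is a description and no separate support. Among the ligands these were Cxcl10 (adjusted p = 0.00647) and Cxcl1 (0.0172), with log2 effects of -3.96 and -2.25 in myeloid progenitors and of 0.74 in LSK cells for each. The receptor Ccr2 (0.0108) had -0.59 in myeloid progenitors and -2.65 in LSK cells with its brightest probe set. Its 3 other kept probe sets gave -1.94, 0.28 and -1.06 in myeloid progenitors, against -1.76, 0.16 and 0.17 in LSK cells, and none of them had a larger fall in LSK cells. Of the cytokine and NF-kB genes, Nfkbiz and Tnfaip3 (3.52e-05 each), Ptgs2 (0.00128), Nfkbia (0.00327), Socs3 (0.0146), Tnf (0.0204), Ier3 (0.0219) and Osm (0.0408) were lower in myeloid progenitors on every FoxO-deficient array. The immediate-early genes Egr1 (1.29e-05), Zfp36 (1.56e-05) and Fos (3.42e-05) were too.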

How the results depend on the processing

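In myeloid progenitors, no FoxO-deficient array reached a wild-type one for Ccl3, Ccl4 or Cxcl2 under any of the 19 alternatives. For most alternatives this was fixed in advance. Each of these genes has 1 probe set, so the filters, probe set choice, array weights and fit to the compared groups left its array values unchanged. Leaving out an array only removed values and renormalised the rest. The offset of 32 and median scaling did change the values. The number of the 8 genes with groups apart ran from 3 to 4 without 1 array. The log2 differences of Ccl3, Ccl4 and Cxcl2, -6.81, -4.98 and -6.86, were -3.76, -1.79 and -4.26 with an offset of 32. Xcl1 could not be fitted without any 1 of FoxO-deficient LSK arrays 4, 5 and 6 or with the 60th percentile filter, and Cxcl12 could not with that filter or without array 2, 4 or 11. With the middle probe set in place of the brightest, Ccl9 had 0.95 in LSK cells, and Ccl6 had -0.72 in myeloid progenitors and 0.85 in LSK cells.

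Counts over all genes moved more. In myeloid progenitors, 253 genes were called, against 507 with an offset of 32, 407 with the 60th percentile filter, 147 with the middle probe set, 1230 with array weights, 644 from only the groups compared, and 132 to 1194 without 1 array. In LSK cells, 37 were called, against 174, 93, 15, 148 and 0 (892 at an unadjusted p under 0.05) under the same alternatives, 22 with median scaling, 16 with no filter, and 9 to 133 without 1 array. For the difference between the effects, 118 were called, against 217, 185, 61 and 440, 72 with median scaling, 75 with no filter, and 56 to 472 without 1 array. Between the wild-type cell types, 2942 were called, against 1100 from only the groups compared and 2023 to 4696 without 1 array. Median scaling moved the median of all genes to 0.19 there, and its calls were 2178 higher and 1209 lower, against 1367 and 1575. For the difference between the effects they were 17 higher and 55 lower, against 40 and 78. The highest counts without 1 array were those without wild-type LSK array 2.

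Called other ligands in myeloid progenitors numbered 2, and 4 with array weights, which added Cxcl3 and Pf4 (2 to 3 without 1 array). In LSK cells there were none, and 1, Pf4, with an offset of 32 or array weights (0 to 1 without 1 array). Called receptors in myeloid progenitors numbered 1, 3 with an offset of 32, and 2 with array weights or only the groups compared (1 to 2 without 1 array). In LSK cells Ccr2 was called, and none with the middle probe set (adjusted p = 0.266) or only the groups compared (0.13). Called cytokine and NF-kB genes in myeloid progenitors numbered 11 (8 to 15 without 1 array), and in LSK cells 0, or 2 with an offset of 32. With the middle probe set, Tnfaip3 (-3.08, adjusted p = 0.0629) and Ptgs2 (0.954) lost their calls in myeloid progenitors. No called result changed direction under these alternatives, and the causes of the moved counts were not tested. No paired analysis was run, since no array number is shared by 2 groups and the labels do not tell whether arrays of different groups share a pool. The tests treat all arrays as independent.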
